A study of Mus musculus with 45 samples.

Results

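The comparison of obese with lean control mice used 10 RNA-seq libraries of the colonic epithelium, chosen by their column labels, out of 45 samples in the series. The 5 control mice (LF) had eaten a diet with 10% fat for 20 weeks and the 5 obese mice (HF) a diet with 60% fat for the same time. All 10 were male C57BL/6J mice (C57BL/6 in the labels) that were 6 weeks old when the diets began, and neither group carried a genetic change. The fat of both diets was lard, and females were not studied. The epithelial layer was released from the whole colon with EDTA, and each library came from 1 mouse. The 5 libraries of formerly obese mice (15 weeks of high-fat and 5 weeks of low-fat diet) were not compared. They entered the choice of tested genes, the scaling and the estimate of the spread. In such bulk samples, fewer cells of a type and less RNA per cell cannot be told apart.

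The colonic epithelium is a single layer of absorptive colonocytes, goblet cells and rarer hormone-making and chemosensory cells that is renewed from stem cells in the crypts. Colonocytes draw much of their energy from butyrate, a short-chain fatty acid that bacteria make from fibre, and they oxidize it in mitochondria. Dietary fat is mostly absorbed in the small intestine, where enterocytes rebuild triglyceride and export it on lipoproteins that carry ApoB. A high-fat diet also brings more bile acid to the colon and lowers the need to make fatty acids from carbohydrate.

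Library totals were 15230391 to 16718408 counts in control mice and 15591904 to 16749096 in obese mice, a difference within the spread between mice (n = 5 each, two-sided exact permutation p = 0.246). On the first principal component, which held 21.7% of the variance, the 5 control mice and obese replicate 2 had negative values and the other 4 obese mice positive ones. Of 12961 tested genes, 205 were called (1.58%), where a call needed a fold change over 1.2, a p-value under 0.01 and an adjusted p under 0.25 by edgeR's quasi-likelihood test. Of the tested genes, 0.718% were called higher (93 genes) and 0.864% were called lower (112 genes) in obese mice. Most changes were small. Only 20 called genes were over 2-fold higher and 7 over 2-fold lower, and the median log2 fold change of the tested genes was 0.000245. At an unadjusted p under 0.05, 649 genes (5.01%) were higher and 758 (5.85%) lower. The values of the 5 obese mice lay wholly above those of the 5 control mice for 157 tested genes (1.21%) and wholly below for 163 (1.26%). These shares are the background for the counts over pathways and families below.

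**Figure D1:**
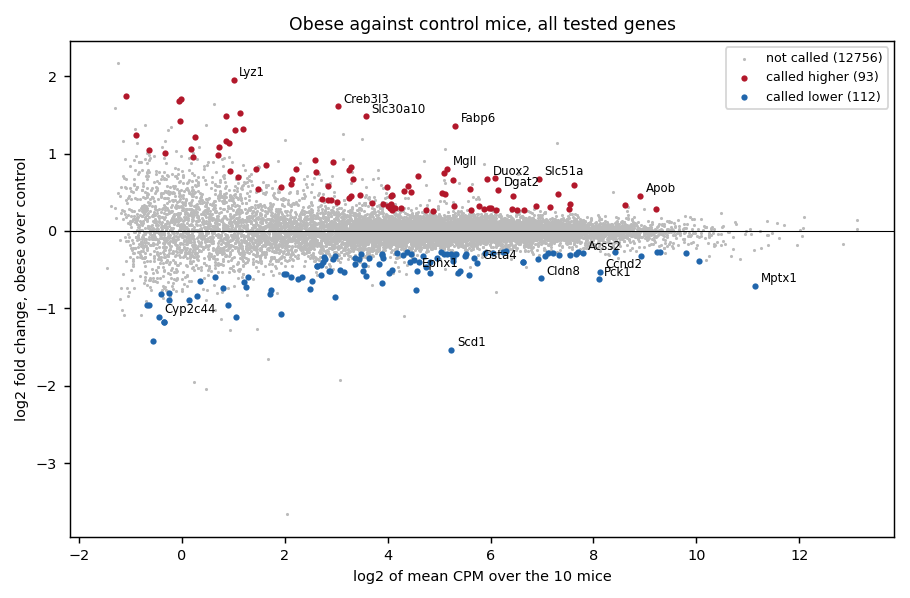
The log2 fold change of obese over control mice is plotted against the log2 of the mean CPM over 10 mice for the 12961 tested genes. Red points are the 93 genes called higher, blue points the 112 called lower, and grey points the genes not called. Scd1 lies lowest among the called genes, at -1.54, while Lyz1, Creb3l3, Slc30a10 and Fabp6 lie above 1.

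Single mice carried much weight in the number of calls. Without 1 library, the count was 40 (obese replicate 3), 44 (control replicate 2), 55 (obese replicate 5), 85 (obese replicate 4), 130 (control replicate 1), 135 (obese replicate 1), 323 (control replicate 4) and 331 (obese replicate 2). The other 2 omissions gave 153 and 206 calls. Of the 205 genes, 33 were called in all 10 such fits, 16 of them higher and 17 lower. The number of these fits in which a gene kept its call is given below as "fits".

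**Figure D2:**
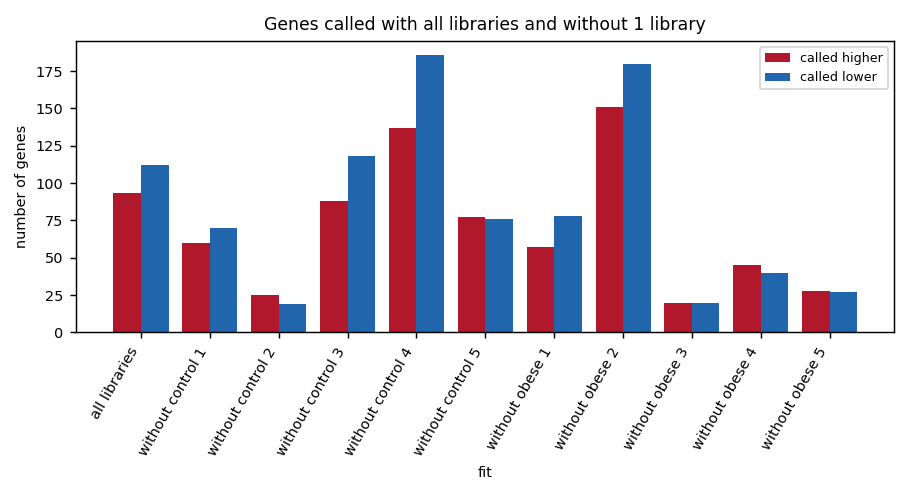
The number of genes called higher (red bars) and lower (blue bars) is shown for the fit with all libraries and for the 10 fits without 1 library. The bars stand at 20 and 20 without obese replicate 3 and at 151 and 180 without obese replicate 2.

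The called genes that make and desaturate fatty acids were lower in obese mice, led by Scd1. Of 17 tested members of this pathway, 2 were called lower and 0 higher, 8 had an unadjusted p under 0.05 and a lower level, and the median log2 fold change was -0.16. Scd1 encodes the desaturase that puts the first double bond into palmitate and stearate (chromosome 19, 44394450 to 44407709 of mm10). Its level was 45.5, 57.2, 50.3, 61.9 and 65.9 CPM in control replicates 1 to 5 and 18.6, 18.7, 17.8, 22.9 and 18.7 CPM in obese replicates 1 to 5, where CPM are counts scaled to a common library total by the TMM method. The lowest control mouse stood well above the highest obese mouse, and the obese level was 0.344 of the control level (log2 -1.54, SE 0.16, edgeR adjusted p = 0.000224; 10 of 10 fits). Acss2, which makes acetyl-CoA from acetate for lipid synthesis, fell from 243 ± 16.3 to 199 ± 17.4 CPM (SD, n = 5; log2 -0.29, SE 0.06, edgeR adjusted p = 0.0941; 8 fits). The 5 obese mice held 195, 226, 178, 199.7 and 198 CPM of Acss2, all below the lowest control mouse at 232 CPM. The other members with a p under 0.05 missed the call. Among these were Elovl5 (log2 -0.19), Fads2 (log2 -0.27), Scd2 (log2 -0.32), Acly, the source of cytosolic acetyl-CoA (log2 -0.19), Acaca, which commits it to fatty acids (log2 -0.13), and the regulator Srebf1 (log2 -0.16). Summed over the pathway, control mice held 4443 to 4743 CPM and obese mice 3772 to 4256 CPM, without overlap. In cholesterol synthesis and uptake, of 24 tested genes 0 were called, 1 was higher and 1 lower at p under 0.05, and the median was -0.01.

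Called genes of lipid synthesis and storage that had a deposited methylation difference nearby are shown with the sequence of that region, since they let expression and methylation be read side by side. The regions are differentially methylated regions (DMRs) that the authors called between obese and control mice by bisulfite sequencing. The letters are the plus strand of GRCm38.p6 with 20 bases on each side, and capitals mark the CpG sites inside the DMR.
Scd1: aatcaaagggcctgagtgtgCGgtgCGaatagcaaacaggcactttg
Dgat2: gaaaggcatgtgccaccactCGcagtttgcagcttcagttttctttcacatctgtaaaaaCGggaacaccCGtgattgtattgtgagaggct
Gpam: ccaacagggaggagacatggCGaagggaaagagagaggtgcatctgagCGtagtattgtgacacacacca

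The Scd1 region (chr19:44408541-44408547) lay 832 bases upstream of the gene's start, held 2 CpGs and was listed as more methylated in obese mice, in which the transcript was lower. The Dgat2 region (chr7:99183865-99183916) lay 1152 bases upstream, held 3 CpGs and was listed as less methylated in obese mice, in which the transcript was higher. The Gpam region (chr19:55093041-55093070) lay inside the gene, held 2 CpGs, was listed as more methylated and belonged to a gene that was lower. None of the 3 regions overlapped a RefSeq exon. Over all called genes, 16.1% of the 93 higher genes and 19.6% of the 112 lower genes had a DMR inside the gene or within 5 kb, against 16.5% of all tested genes. More methylated DMRs lay at 11 higher genes (11.8%) and 11 lower genes (9.82%), against 8.98% of all tested genes, and less methylated ones at 6 (6.45%) and 13 (11.6%), against 9.47%. The DMR list gives no value per mouse, so no test was run.

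The called genes on a list of short-chain fatty acid uptake, activation and dehydrogenation were lower too. The paper reports Acss1, Acss2, Acsm3 and Acadsb, all on this list, as lower in obese mice from the same libraries. The counts and the median of the list are therefore not independent of that result. Of 11 tested members, 3 were called lower and 0 higher, 5 were lower and 1 higher at p under 0.05, and the median was -0.17. Besides Acss2 these were Acadsb, the short and branched chain acyl-CoA dehydrogenase, and Acsm3, a medium-chain acyl-CoA synthetase that acts on butyrate. Acadsb was at 36.8, 41.3, 35.2, 39.0 and 36.7 CPM in control mice and 29.6, 32.9, 29.7, 31.2 and 29.5 CPM in obese mice (log2 -0.30, SE 0.06, edgeR adjusted p = 0.0723; 10 fits). Acsm3 was at 392, 415, 369.6, 334 and 365 CPM in control mice and 313, 327, 281, 318 and 308 CPM in obese mice (log2 -0.28, SE 0.08, edgeR adjusted p = 0.177). For both genes every obese mouse was below every control mouse, but Acsm3 kept its call in only 4 fits. Acss1, the mitochondrial acetate synthetase (log2 -0.25), missed the fold cutoff, the lactate exporter Slc16a3 had the higher level (log2 0.48, edgeR adjusted p = 0.333), and the butyrate transporters Slc5a8 (log2 -0.22) and Slc16a1 (log2 -0.17) did not pass the test. The number of called members was 1 without control replicate 2 or obese replicate 3 and 5 without obese replicate 2.

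The mitochondrial pathways downstream had few calls. In mitochondrial fatty acid oxidation and ketogenesis, Acadsb was the only called gene of 20 and the median was 0.00. In peroxisomal fatty acid oxidation 0 of 16 were called. Its members Slc27a2, which activates long-chain fatty acids (log2 0.40, edgeR adjusted p = 0.297), Acaa1b, a thiolase (log2 0.67, edgeR adjusted p = 0.326), and Hao2, a hydroxyacid oxidase (log2 -0.28, edgeR adjusted p = 0.263), were among those with a p under 0.05. Of 27 genes of pyruvate dehydrogenase and the TCA cycle, 24 had a fold change below 0, 4 were lower and 0 higher at p under 0.05, and 2 were called lower, with a median of -0.07. Of all tested genes, 50.1% had a fold change above 0. These were Idh2, mitochondrial isocitrate dehydrogenase (log2 -0.28, 5 fits), and Pdp1, the phosphatase that activates pyruvate dehydrogenase (log2 -0.29, 2 fits). Neither was called without control replicate 2, obese replicate 3, obese replicate 4 or obese replicate 5. The 80 tested subunits of the respiratory chain and ATP synthase had 0 calls and a median of -0.02.

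Glucose genes had few calls. Of 20 tested genes of uptake and glycolysis 1 was called higher and 1 lower, with a median of -0.01. At p under 0.05, 1 was higher and 3 were lower, and 12 had a fold change below 0. The lowest log2 fold change, -1.14, was that of a member without a call. Pfkm, the muscle-type phosphofructokinase, was at 22.5, 28.4, 23.9, 23.9 and 24.8 CPM in control mice and 17.4, 21.5, 17.99, 18.1 and 18.3 CPM in obese mice (log2 -0.40, SE 0.08, edgeR adjusted p = 0.0678; 10 fits). The groups did not overlap, and obese replicate 2 was nearest to the control mice. Pfkfb3, which makes the activator of phosphofructokinase, rose 1.8-fold (log2 0.85, SE 0.23, edgeR adjusted p = 0.164; 4 fits). Pck1, the rate-limiting enzyme of gluconeogenesis that also feeds glycerol synthesis, was at 333, 421, 276, 292 and 345 CPM in control mice and 186, 278, 177, 228 and 213 CPM in obese mice (log2 -0.62, SE 0.13, edgeR adjusted p = 0.0786; 10 fits). Obese replicate 2 slightly exceeded control replicate 3 in Pck1, so the groups overlapped at 1 mouse.

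Genes that build, store and split triglyceride went both ways. Of 17 tested members 3 were called higher and 1 lower, with a median of 0.02. Mgll, which releases the last fatty acid from monoglyceride, was at 20.6, 20.6, 28.2, 30.3 and 30.3 CPM in control mice and 42.1, 36.7, 49.5, 53.6 and 44.7 CPM in obese mice (log2 0.80, SE 0.13, edgeR adjusted p = 0.022; 10 fits). Dgat2, which adds the final fatty acid to make triglyceride, was at 65.1, 59.6, 53.9, 58.0 and 52.7 CPM in control mice and 72.3, 74.1, 86.5, 96.7 and 88.2 CPM in obese mice (log2 0.53, SE 0.11, edgeR adjusted p = 0.0678; 10 fits). Every obese mouse exceeded every control mouse for both genes. Lipa, the lysosomal acid lipase, rose less and kept its call in 2 fits (log2 0.29, edgeR adjusted p = 0.244). Gpam, the first enzyme of glycerolipid synthesis, went the opposite way, at 61.5, 53.8, 64.3, 55.3 and 52.0 CPM in control mice and 44.5, 50.9, 43.2, 46.2 and 40.4 CPM in obese mice (log2 -0.35, SE 0.07, edgeR adjusted p = 0.0723; 10 fits). Its highest obese mouse, replicate 2, was just below its lowest control mouse, replicate 5.

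The called genes of fat absorption and lipoprotein export were higher. Of 9 tested members 3 were called higher and 0 lower, 8 had a fold change above 0 (50.1% of all tested genes did), and the median was 0.33. Creb3l3, a transcription factor of lipid metabolism in liver and intestine, was at 4.80, 3.41, 3.29, 4.56 and 4.05 CPM in control mice and 11.7, 9.17, 13.6, 12.3 and 14.8 CPM in obese mice. The lowest obese mouse stood well above the highest control mouse, and the fold was 3.06 (log2 1.61, SE 0.34, edgeR adjusted p = 0.0723; 10 fits). Apob, the structural protein of chylomicrons, was at 373, 431, 437, 411 and 381 CPM in control mice and 549, 487, 599.5, 635 and 514 CPM in obese mice (log2 0.45, SE 0.12, edgeR adjusted p = 0.142; 5 fits), again without overlap. Mfsd2a, a carrier of lysophospholipids, rose (log2 1.30, edgeR adjusted p = 0.208; 3 fits), although obese replicate 2, at 0.917 CPM, lay among the control mice. Npc1l1, the cholesterol uptake protein (log2 0.63), Mttp, which loads lipid onto ApoB (log2 0.13), and Fabp2 (log2 0.11) did not pass the test. Fewer members were called without single libraries, 1 without control replicate 1 or 2 or obese replicate 3, 4 or 5, and the median was 0.17 without obese replicate 3. Among 14 tested PPAR target genes, Creb3l3 was the only call and the median was 0.08. Pdk4, which holds back glucose oxidation (log2 0.38), and Angptl4 (log2 0.09) did not pass the test.

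**Figure D3:**
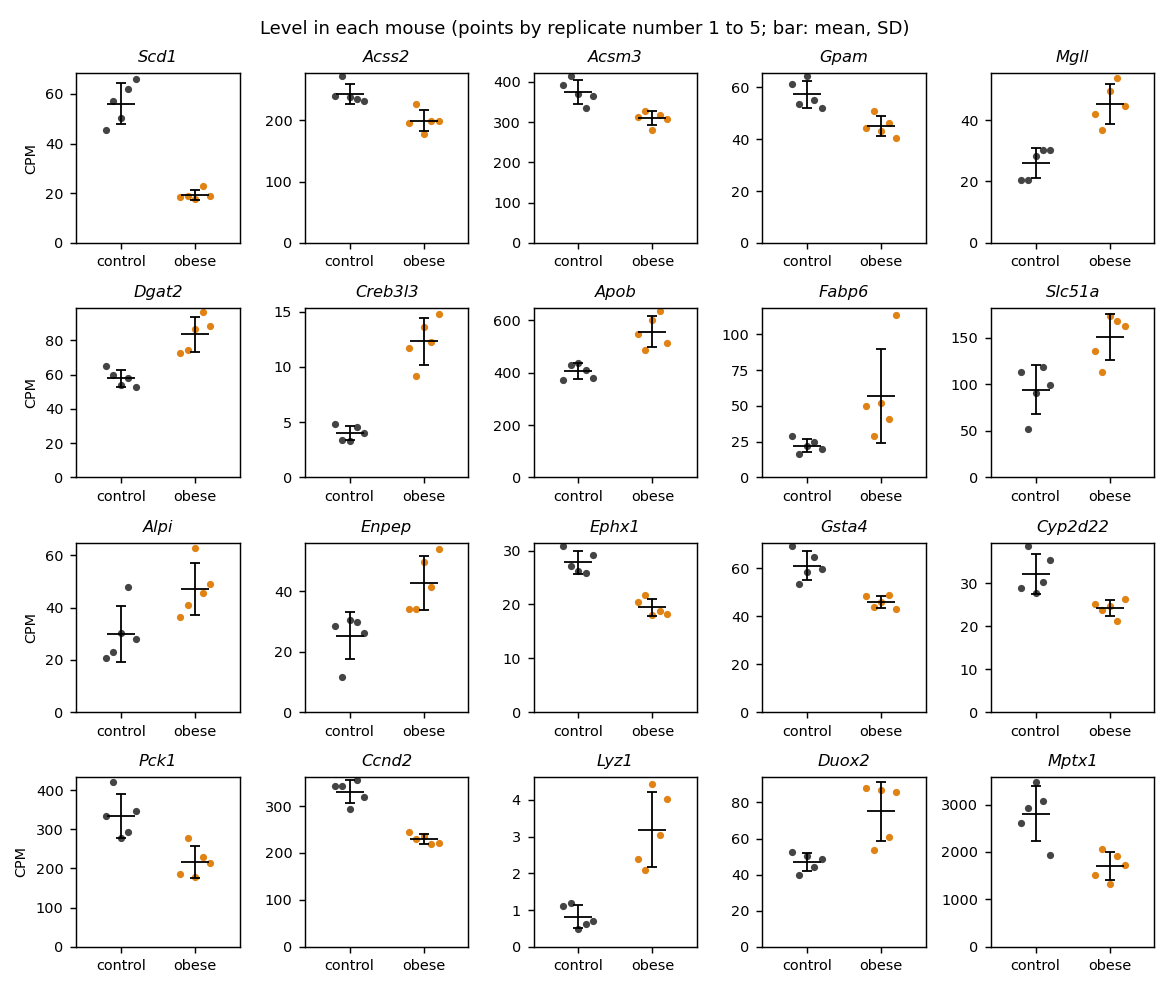
CPM of 20 called genes are plotted for each control mouse (dark points) and each obese mouse (orange points), in the order of replicates 1 to 5, with the mean and SD as black bars. Every vertical axis starts at 0. The groups are apart for Scd1, Creb3l3 and Ccnd2, and obese replicate 5 stands far above the other obese mice for Fabp6, at 114 CPM.

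The bile acid genes Fabp6 and Slc51a and some enzymes of the absorptive brush border were among the genes that rose. Of 15 tested genes of sterol and bile acid handling, 2 were called higher and 2 lower, with a median of 0.04. At p under 0.05, 3 were higher and 5 lower. Fabp6, the ileal bile acid binding protein, was at 28.7, 16.2, 22.1, 24.6 and 19.9 CPM in control mice and 49.7, 29.3, 51.9, 41.1 and 114 CPM in obese mice (log2 1.36, SE 0.27, edgeR adjusted p = 0.0678; 10 fits). All obese mice were above all control mice, and without obese replicate 5 the log2 fold change was 0.95. Slc51a, a subunit of the exporter that passes bile acids to the blood, rose from 94.5 ± 26.3 to 151 ± 25.1 CPM (SD, n = 5; log2 0.67, SE 0.17, edgeR adjusted p = 0.142; 7 fits), with obese replicate 2 at 114 CPM inside the control range of 51.8 to 118 CPM. Mylip, a ubiquitin ligase that removes the LDL receptor (log2 -0.39, edgeR adjusted p = 0.142), and Soat1, which esterifies cholesterol (log2 -0.29, edgeR adjusted p = 0.209), fell. Only 1 member of the list was called without obese replicate 3, 4 or 5, and 7 were called without control replicate 4.

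Of 14 tested brush border digestive enzymes, 4 were called higher and 0 lower, and the median was 0.19. Ggt1, which splits glutathione outside the cell, was at 5.61, 3.01, 3.47, 3.75 and 4.89 CPM in control mice and 5.98, 6.05, 8.38, 7.11 and 11.6 CPM in obese mice (log2 0.91, SE 0.21, edgeR adjusted p = 0.111; 7 fits). Enpep, glutamyl aminopeptidase, was at 28.4, 11.7, 30.6, 29.9 and 26.2 CPM in control mice and 34.2, 34.0, 49.8, 41.5 and 54.0 CPM in obese mice (log2 0.75, SE 0.19, edgeR adjusted p = 0.143; 7 fits). Both genes kept the groups apart, and control replicate 2 was the lowest mouse for both. Naaladl1, a peptidase (log2 0.48, 6 fits), and Alpi, intestinal alkaline phosphatase (log2 0.65, 2 fits), also rose. In Alpi, control replicate 4 at 47.9 CPM was above 3 of the obese mice. None of these 4 was called without obese replicate 3 or without obese replicate 5. In amino acid transport, 1 of 14 tested genes was called. Slc7a9, the carrier of cystine and basic amino acids, rose from 17.0 ± 2.30 to 25.3 ± 2.93 CPM (SD, n = 5; log2 0.58, edgeR adjusted p = 0.225), without overlap but with a call in only 1 fit. Ces2b, a carboxylesterase (log2 0.71, edgeR adjusted p = 0.173), was the only call among 13 tested members of its family.

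Markers of small intestinal enterocytes were examined beside these genes. Of 11 such markers 6 were tested, and all 6 had a fold change above 0, with a median of 0.39. Fabp6 and Alpi, both described above, were the 2 called ones, while Sis (log2 0.39), Slc10a2 (log2 0.38), Fabp2 (log2 0.11) and Slc5a1 (log2 0.01) did not pass the test. The untested markers Lct, Fabp1, Apoa1, Apoa4 and Apoc3 were at or near 0 in both groups, with 8 to 35 counts of each in all 10 libraries together. The summed level of the 11 markers was 719 to 1052 CPM in control mice and 834 to 1076 CPM in obese mice. Of 9 tested posterior Hox genes, which mark the distal gut, 7 were below 0 with a median of -0.13, and Hoxd12 fell (log2 -0.76, edgeR adjusted p = 0.184; 5 fits). Their sum was 485 to 606 CPM in control mice and 424 to 550 CPM in obese mice. The part of sampling along the colon in the bile acid and brush border results was not tested.

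Phospholipid and retinoid genes had few calls. Of 20 tested phospholipid genes 1 was called higher and 1 lower, with a median of -0.06. Lpcat1, which rebuilds phosphatidylcholine from its lyso form, was at 13.6, 15.7, 14.3, 14.8 and 13.5 CPM in control mice and 8.93, 10.0, 9.62, 8.73 and 10.7 CPM in obese mice (log2 -0.58, SE 0.10, edgeR adjusted p = 0.0371; 10 fits). The 2 groups were far apart in every mouse. Pla2g2a, a secreted phospholipase that C57BL/6 mice carry in a truncated form, rose at low level (log2 0.70, edgeR adjusted p = 0.199; 5 fits). In retinoid metabolism 2 of 14 tested genes were called higher and 0 lower, 7 were above 0 and 7 below, and the median was -0.003. The summed level of this list was 1606 to 1957 CPM in control mice and 1300 to 1647 CPM in obese mice. Dhrs9, a retinol dehydrogenase, was at 6.94 ± 0.961 CPM in control and 11.96 ± 2.87 CPM in obese mice (SD, n = 5; log2 0.79, SE 0.16, edgeR adjusted p = 0.0678; 10 fits). Its groups did not overlap.

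The called cytochrome P450 genes, glutathione S-transferases and sulfotransferases were all lower. Of 30 tested cytochrome P450 genes of families 1 to 4, 4 were called lower and 0 higher, with a median of -0.15. Cyp2d22 was at 29.0, 38.6, 27.8, 30.2 and 35.4 CPM in control mice and 25.2, 23.7, 24.8, 21.2 and 26.4 CPM in obese mice (log2 -0.41, SE 0.09, edgeR adjusted p = 0.0894; 10 fits). Its groups did not overlap, as was also the case for the scarce Cyp2c44 (log2 -1.11, 6 fits). In Cyp2f2 (log2 -0.58, 8 fits) and Cyp2d12 (log2 -0.52, 1 fit) some obese mice reached the control range, and control replicate 2 was the highest mouse for each of the 4 genes. Cyp2d22 was the only P450 call without control replicate 2 or without obese replicate 3, and 2 genes were called without obese replicate 4 or 5. The P450 median lay between -0.20 and -0.04 without single libraries.

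Of 23 tested glutathione S-transferases, 20 had a fold change below 0, 2 were called lower and 0 higher, 7 were lower at p under 0.05, and the median was -0.13. Gsta4, which detoxifies products of lipid peroxidation, was at 69.4, 53.5, 58.5, 64.8 and 59.8 CPM in control mice and 48.6, 43.9, 45.8, 48.7 and 42.9 CPM in obese mice (log2 -0.41, SE 0.07, edgeR adjusted p = 0.0367; 10 fits). Gstt1 fell from 33.5 ± 5.67 to 22.9 ± 3.39 CPM (SD, n = 5; log2 -0.55, edgeR adjusted p = 0.142; 7 fits). Gsta4 separated the groups, while in Gstt1 obese replicate 5 lay just above the 2 lowest control mice, all 3 at 28.2 CPM after rounding. Gsta4 was the only call of the family without control replicate 2 or obese replicate 3 or 4, and 4 genes were called without control replicate 3. The family median was -0.05 without control replicate 4 and -0.09 once each library's trend on transcript GC content and length was removed. Ephx1, microsomal epoxide hydrolase, was at 30.8, 27.0, 26.3, 25.8 and 29.1 CPM in control mice and 20.5, 21.7, 17.99, 18.8 and 18.2 CPM in obese mice (log2 -0.52, SE 0.08, edgeR adjusted p = 0.022; 10 fits), without overlap. It was the only lower call among 15 tested genes of glutathione and the NRF2 response, where Ggt1 was the only higher one and the median was 0.01. Sult1a1, a phenol sulfotransferase, fell (log2 -0.28, edgeR adjusted p = 0.125; 6 fits), and all 5 tested sulfotransferases were below 0. The 7 tested UDP-glucuronosyltransferases and the 18 tested alcohol and aldehyde dehydrogenases had 0 calls. Among 13 tested genes of sulfur amino acids and sulfide, Ctns, the lysosomal cystine exporter (log2 -0.30, edgeR adjusted p = 0.0896; 9 fits), and Selenbp1, which oxidizes methanethiol (log2 -0.38, edgeR adjusted p = 0.142; 5 fits), fell.

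Cytosolic ribosomal protein genes had mostly lower levels. Of 78 tested members 64 were below 0 with a median of -0.14, 30 were lower and 2 higher at p under 0.05, and 10 had all obese mice below all control mice, while 0 had them above. Their sum was 12128 to 13599 CPM in control mice and 10885 to 12299 CPM in obese mice, which overlap. Calls were few and none was made without control replicate 1, control replicate 2 or obese replicate 3, with Rpl6 (log2 -0.27, 1 fit) and Rpl23 (log2 -0.40, 3 fits) lower and Rpl23a (log2 1.32, 4 fits) higher. The median stayed between -0.17 and -0.12 without single libraries and was -0.11 with the trend on GC content and length removed. Reads of these genes can be shared with processed pseudogenes, so single members are uncertain. The 75 mitochondrial ribosomal proteins (median -0.01) and the 37 proteasome subunits (median 0.00) had 0 calls, and the 309 tested zinc finger genes named Zfp had 2 lower calls with a median of -0.04.

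The G1 cyclin Ccnd2 fell, and no other tested cell cycle gene was called. Ccnd2 was at 343, 342, 294, 355 and 319.8 CPM in control mice and 244, 229.8, 236, 219 and 221 CPM in obese mice (log2 -0.52, SE 0.07, edgeR adjusted p = 0.00346; 10 fits). Every obese mouse was below every control mouse. It was the only called gene of 31 in cell cycle and DNA replication and also the only one with a p under 0.05, and the median was -0.05. Of 17 tested Wnt targets and receptors 0 were called, and Fzd6 had the smallest p (log2 -0.33, edgeR adjusted p = 0.255).

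A list of kinase and cytokine feedback genes, with the receptor Lifr among its members, had the lowest median of all pathways and families described, at -0.20. The list was chosen with earlier results of these data known, so its rank is only a description. Of 17 tested members 2 were called lower and 0 higher, and 7 were lower and 0 higher at p under 0.05. Lifr, the receptor of leukaemia inhibitory factor, was at 10.7, 9.95, 8.99, 9.29 and 11.5 CPM in control mice and 6.92, 5.93, 4.19, 5.55 and 5.40 CPM in obese mice (log2 -0.85, SE 0.14, edgeR adjusted p = 0.022; 10 fits). The groups did not overlap, and obese replicate 3 was lowest. Spry1, an inhibitor of receptor tyrosine kinase signals, fell less (log2 -0.35, edgeR adjusted p = 0.143; 5 fits). Spry2 (log2 -0.20), Spry4 (log2 -0.72), Spred1 (log2 -0.20), Dusp4 (log2 -0.42) and Cish (log2 -0.37) had a p under 0.05 without a call, and Socs3 was at the other side (log2 0.76, edgeR adjusted p = 0.472). In insulin and IGF signalling, 1 of 16 tested genes was called higher and 1 lower. Irs1, the insulin receptor substrate, fell (log2 -0.51, edgeR adjusted p = 0.178; 5 fits), and Sgk1, a kinase that raises sodium uptake in the colon, was at 134, 152, 130.3, 183 and 179 CPM in control mice and 185, 204, 260.1, 308 and 223 CPM in obese mice (log2 0.60, SE 0.13, edgeR adjusted p = 0.0918; 9 fits). The lowest obese mouse was just above the highest control mouse in Sgk1. Neither gene was called without obese replicate 3.

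In the BMP and TGF-beta pathway, 3 of 25 tested genes were called higher and 2 lower, with a median of 0.00. The inhibitors Skil (log2 0.27) and Pmepa1 (log2 0.35) and the ligand Bmp8b (log2 1.09) rose, while the BMP antagonist Nbl1 (log2 -0.47) and the receptor Acvrl1 (log2 -0.59) fell. Each of these kept its call in 3 to 5 fits, and the pathway had 0 calls without control replicate 2 or without obese replicate 3. The 16 tested immediate early genes had 0 calls. Nr4a1 had the smallest p among them (log2 -0.54, edgeR adjusted p = 0.317).

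Epithelial defence genes had the most calls of any pathway, in both directions. Of 18 tested members 6 were called higher and 2 lower, and the median was 0.43. At p under 0.05, 7 were higher and 4 lower. The summed level of the list went the other way, with 10982 to 13292 CPM in control mice and 9238 to 11383 CPM in obese mice, which overlap. Lyz1, lysozyme of Paneth cells, was at 1.12, 1.18, 0.496, 0.616 and 0.708 CPM in control mice and 2.39, 2.08, 4.42, 3.06 and 4.02 CPM in obese mice (log2 1.95, SE 0.36, edgeR adjusted p = 0.0468; 10 fits). Duox2, which makes hydrogen peroxide at the cell surface, was at 52.4, 39.6, 50.04, 44.4 and 48.8 CPM in control mice and 88.2, 53.8, 86.8, 60.8 and 85.5 CPM in obese mice (log2 0.67, SE 0.14, edgeR adjusted p = 0.0786; 10 fits). The groups were apart for both, and obese replicates 2 and 4 were nearest to control mice for Duox2. Its maturation factor Duoxa2 showed the same 2 obese mice low, at 8.68 and 8.17 CPM against 14.0 to 15.6 CPM in the other 3 (log2 0.67, edgeR adjusted p = 0.15; 6 fits). Slpi, a protease inhibitor (log2 1.17, 5 fits), Nos2, which makes nitric oxide (log2 1.22, 3 fits), and Pla2g2a were the other higher ones. Mptx1, mucosal pentraxin, was at 2602, 2936, 3470.2, 3084 and 1926 CPM in control mice and 1519, 2067, 1327, 1910.2 and 1733 CPM in obese mice (log2 -0.71, SE 0.17, edgeR adjusted p = 0.125; 7 fits). Control replicate 5 lay within the obese range of Mptx1. Itln1, intelectin, fell at low level (log2 -1.11, edgeR adjusted p = 0.182; 3 fits), and Ang4, an antimicrobial ribonuclease, did not pass the test (log2 -0.79, edgeR adjusted p = 0.483). The list had 2 calls without control replicate 2, obese replicate 3 or obese replicate 5, and its median was 0.19 where genes had to have at least 10 counts in every compared library. Of the 6 Paneth cell markers, Defa17 and Defa24 were at 0 in all 10 libraries, and the summed level was 31.3 to 158 CPM in control mice and 41.1 to 80.1 CPM in obese mice.

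Other immune genes gave little. Of 16 tested interferon-stimulated genes 0 were called, of 7 tested MHC class II genes 0 were called, and of 15 tested genes of MHC class I and antigen processing 1 was called. H2-Q2, a class I heavy chain, rose (log2 0.33, edgeR adjusted p = 0.144; 6 fits), though its reads may be shared with near-identical H2 genes. Markers of T cells and intraepithelial lymphocytes had a median of 0.33 over 9 tested genes with 0 calls (-0.08 to 0.55 without single libraries), and their sum was 24.1 to 51.3 CPM in control mice and 30.4 to 75.1 CPM in obese mice.

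The called protein folding genes were higher. Of 17 tested cytosolic chaperones 14 were above 0 and 3 were called higher, namely Hsph1 (log2 0.54), Hspa2 (log2 0.78) and Chordc1 (log2 0.27), with a median of 0.08. At p under 0.05, 5 were higher and 1 was lower, and the lowest log2 fold change was -0.62. All obese mice lay above all control mice for 4 members and below for 1. Hsph1, a partner of Hsp70, was at 37.9, 35.6, 38.1, 39.8 and 45.6 CPM in control mice and 48.6, 49.4, 74.9, 56.5 and 56.7 CPM in obese mice (SE 0.17, edgeR adjusted p = 0.225; 3 fits), without overlap. None of the 3 was called without obese replicate 3, 4 or 5. In the unfolded protein response of the endoplasmic reticulum, 14 of 16 tested genes were above 0 with a median of 0.09, 4 had a p under 0.05 and 0 were called. Creld2, a secreted factor of this response, had the smallest p (log2 0.26, edgeR adjusted p = 0.225) and fell short of the fold cutoff, and the chaperone Hspa5 was at log2 0.28 (edgeR adjusted p = 0.418). The 16 tested clock genes had 0 calls, with Per1 at log2 0.41 (edgeR adjusted p = 0.323).

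Barrier and transport genes included a few called members in large families. Of 25 tested genes of colonic ion and water transport, Sgk1 was called higher and Slc20a1, a phosphate carrier, lower (log2 -0.32, edgeR adjusted p = 0.182; 4 fits), with a median of -0.03. Of 243 tested solute carriers, counted by symbols with a family number, a letter and a member number and so without Slc51a and Slc51b, 5 were called higher and 3 lower. Without single libraries this family had 2 (control replicate 2) to 14 calls (obese replicate 2), and 3 without obese replicate 3, 4 or 5. Ion and water transport had 0 calls without obese replicate 3 and 1 without control replicate 2, control replicate 5 or obese replicate 1, 4 or 5. Slc30a10, a manganese exporter, was at 8.78, 5.83, 5.77, 3.88 and 7.27 CPM in control mice and 22.8, 10.1, 20.4, 18.7 and 16.03 CPM in obese mice (log2 1.48, SE 0.32, edgeR adjusted p = 0.0894; 10 fits). Slc6a4, the serotonin transporter, fell from 48.8 ± 10.5 to 33.3 ± 4.28 CPM (SD, n = 5; log2 -0.55, edgeR adjusted p = 0.134; 7 fits). Both carriers kept the groups apart. Slc17a4, a phosphate transporter (log2 0.31), Slc4a11 (log2 1.67), Slc7a15 (log2 1.01) and Slc35e3 (log2 -0.40) were the other called ones not named above.

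Among 16 tested tight junction genes, Cldn8, a sealing claudin of the distal colon, was the only call. It was at 134, 154, 122, 203 and 155 CPM in control mice and 115, 103, 87.1, 97.1 and 99.4 CPM in obese mice (log2 -0.61, SE 0.15, edgeR adjusted p = 0.122; 7 fits), and the groups did not overlap. Of 17 tested genes of the basement membrane and its receptors, 2 were called higher and 2 lower. Lama3, a laminin chain, was at 56.5, 54.3, 62.2, 40.4 and 46.2 CPM in control mice and 80.7, 79.4, 71.6, 83.1 and 103 CPM in obese mice (log2 0.69, SE 0.14, edgeR adjusted p = 0.0678; 10 fits), without overlap. Lama5 (log2 -0.68, 4 fits) and Lamb2 (log2 -0.37, 3 fits) fell, and the integrin Itgav, which binds matrix proteins, rose (log2 0.33, 9 fits). The basement membrane list had 1 call without obese replicate 3 and 2 without control replicate 1, 2 or 5 or obese replicate 4 or 5, against 4 with all libraries. Of 14 tested keratins, Krt23 fell (log2 -0.36, 1 fit), and Krt18 missed the fold cutoff (log2 -0.25, edgeR adjusted p = 0.105).

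**Figure D4:**
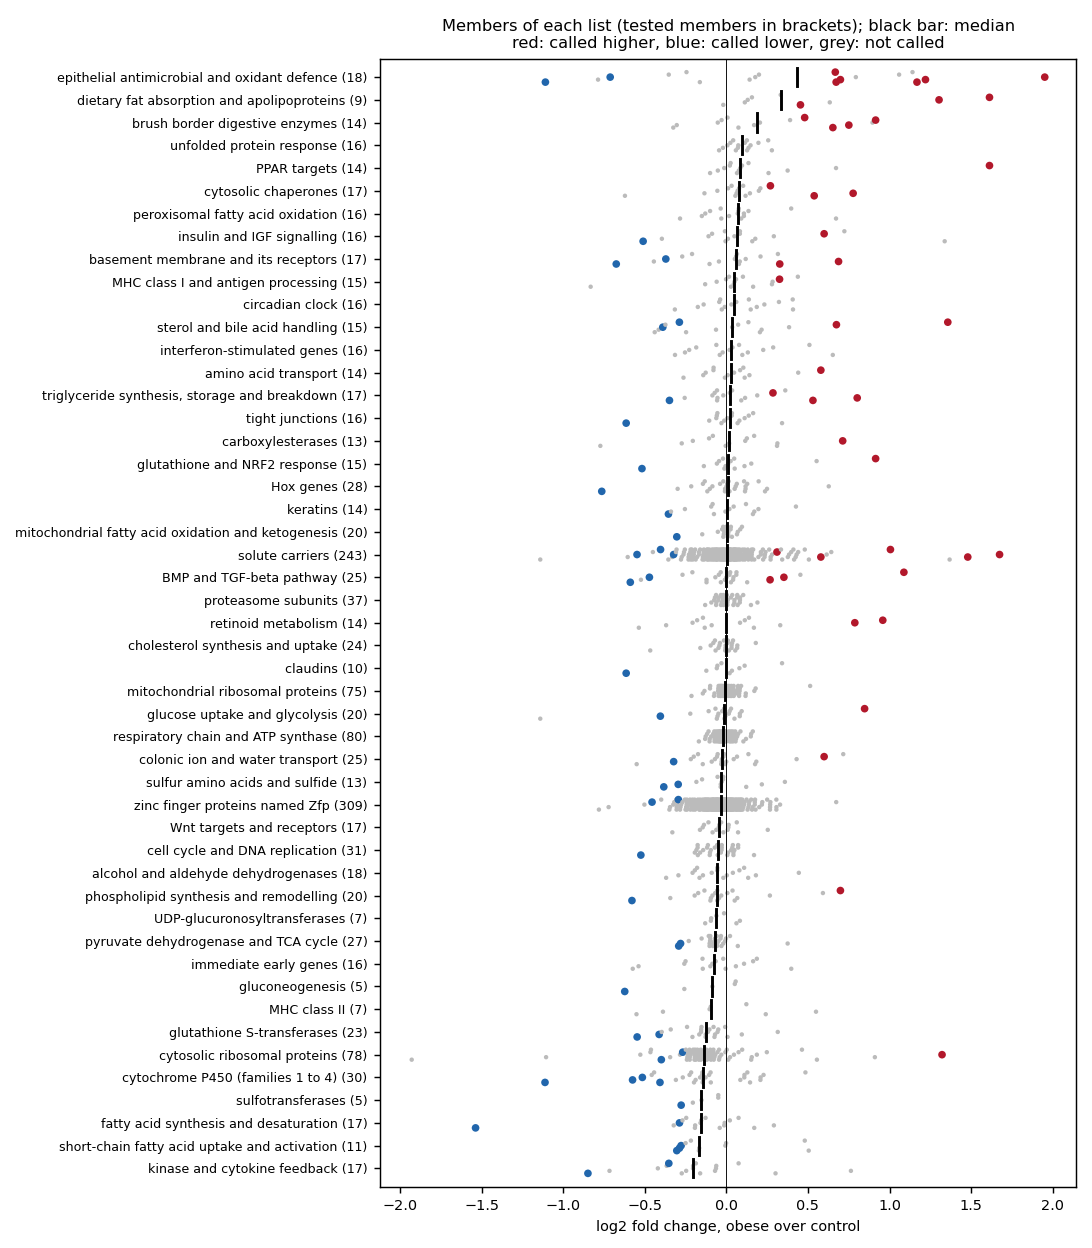
Each row is a pathway or gene family with at least 5 tested members, and each point is the log2 fold change of a member (red called higher, blue called lower, grey not called), with the median as a black bar. The medians run from -0.20 for kinase and cytokine feedback to 0.43 for epithelial defence, and the called members of brush border enzymes and fat absorption lie above 0, those of cytochrome P450 genes and glutathione S-transferases below.

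The markers of the epithelial cell types themselves changed little. The 7 colonocyte markers had 0 calls and a median of -0.03, the 10 enteroendocrine, 5 tuft and 5 stem cell markers tested had 0 calls, and the medians were 0.04, 0.09 and 0.04. Of 8 goblet cell markers Spink4 was called higher (log2 0.34, edgeR adjusted p = 0.214; 3 fits). Markers of other tissues were scarce. Summed CPM were at most 2.70 for smooth muscle, 0.498 for adipocytes and 7.33 for B and plasma cells in any library, and the adipocyte markers Lep, Plin1 and Retn were at 0 in all 10. Fibroblast markers summed to 2.34 to 10.9 CPM in control mice and 6.78 to 17.4 CPM in obese mice, with a median of 0.66 over 4 tested genes and 0 calls. Of 2 tested mesothelial markers, 2 were higher at p under 0.05 and 0 were called. Msln (log2 1.01, edgeR adjusted p = 0.332) was at 1.83, 2.43 and 1.80 CPM in obese replicates 3 to 5 and at 0.308 to 1.07 CPM in the other 7 mice. Upk3b was at 1.89, 1.62 and 1.56 CPM in obese replicates 3 to 5 and at 0.123 to 0.868 CPM in the other 7 mice. The part of these cells in the results above was not tested.

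**Figure D5:**
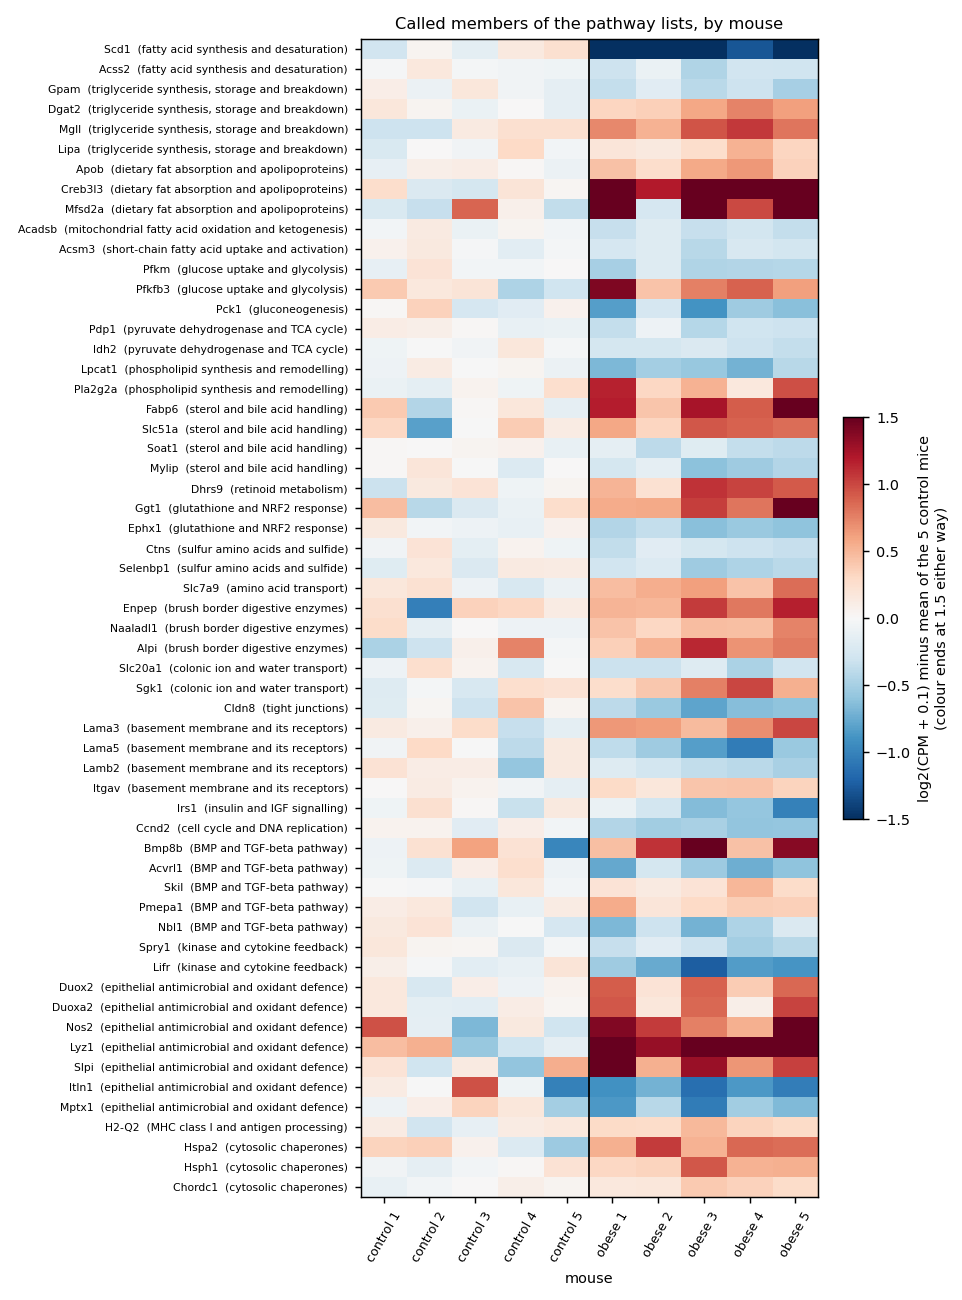
Rows are 58 called members of the pathway lists and columns the 10 mice, and colour gives log2(CPM + 0.1) minus the mean of the 5 control mice, red higher and blue lower, ending at 1.5 either way. Scd1 is blue in all 5 obese mice, Creb3l3 and Lyz1 are red in all 5, and obese replicate 2 is paler than obese replicate 3 for most genes shown in red or blue.

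Of the 205 called genes, 125 belonged to none of these pathways or families. By the smallest p among those with at least 50 counts on average, the leading ones were, on the higher side, Pcdh17, a protocadherin, Vps37c, part of the ESCRT-I complex, Syk, a tyrosine kinase, Fhl2, a LIM domain protein, and March3, a ubiquitin ligase. Pcdh17 was at 79.0, 78.6, 76.8, 72.6 and 61.0 CPM in control mice and 98.1, 95.4, 107, 102 and 99.3 CPM in obese mice (log2 0.45, SE 0.07, edgeR adjusted p = 0.016; 10 fits). Fhl2 (log2 0.37), Syk (log2 0.30), Vps37c (log2 0.27) and March3 (log2 0.60) also had all obese mice above all control mice. The leading lower ones were Ccbl2, a kynurenine aminotransferase (log2 -0.44), Tmeff1, a transmembrane protein (log2 -0.50), Clybl, a mitochondrial lyase (log2 -0.28), Rell1 (log2 -0.26) and Emp2, a membrane protein (log2 -0.40), each with all obese mice below all control mice.

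Short sequence motifs were counted in the promoters of called genes. RefSeq promoters of GRCm38.p6, from 250 bases before to 50 after the start, were matched for 66 higher and 88 lower genes and for 10355 of the tested genes. The CCAAT box, searched as CCAAT or ATTGG for both strands, was in 35.4% of 99 promoters of higher genes and 38.7% of 106 promoters of lower genes, against 37.7% of 13183 promoters of tested genes. The E-box CACGTG, the same on both strands, was in 13.1% and 11.3%, against 9.79%. The PPAR type of element, AGGTCA and AGGTCA 1 base apart on either strand, was in 0 promoters of called genes and in 6 of all 13183. The exact PPAR type of element was so rare among all promoters that finding it in 0 promoters of called genes carries no information. These shares are descriptions of the letters in these windows.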

How the data were processed

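Colonic epithelium of 5 control and 5 obese mice was compared by RNA-seq. For these data, read pairs from a strand-specific poly(A) kit were placed on mm10 by the authors with TopHat2 2.0.4, and reads per gene were tallied with HTSeq. The deposited unit is raw counts. The submitters' processing notes also name cutadapt. The strand mode and annotation release were not given in the sources used here, so overlapping and antisense genes are uncertain. The table had 24918 entries. The DMR list deposited by the authors holds positions and a direction (unit other), with starts counted from 0, and was used only as a description. Tables of the authors' own DESeq2 1.2.10 comparisons (fold changes and p-values) and the amplicon methylation table were not used.

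Counts were fitted in R 4.3.3 with edgeR 4.0.16 (filterByExpr, TMM, quasi-likelihood, group as the only term, all 15 RNA-seq libraries). The cutoffs are those of the study's methods. CPM used TMM-scaled totals, and adjusted p-values are Benjamini-Hochberg over all 12961 tested genes. The fit was tested on simulated data. Alternatives were other scalings and filters, DESeq2 1.42.0, the 10 libraries alone, a block of replicate numbers, a stricter threshold, each library left out, and, chosen after seeing the data, removal of each library's trend on transcript GC content and length. The replicates are separate mice by the labels. Totals of 15230391 to 16749096 counts limit precision mainly for genes near 1 CPM.

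By rule, the text names 12 leading genes per direction (smallest p among calls with a mean of at least 50 counts) and each called member of a list. In lists with fewer than 2 called members, the rule also drew the tested member with the smallest p, but not all of these are named. Other members named beside them were chosen after their values were seen. The gene lists and the comparison were chosen with earlier results of these data known. Lists were described by counts and medians, with no set test. A few genes are not reported here by name and count only within totals.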

Additional observations from a re-analysis of the deposited data

Results flagged for a closer look

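For 113 genes drawn by the naming rule, each group of 5 mice was checked for 1 mouse far from the other 4. By Dixon's criterion, 14 of 226 groups had one. Chance flags about 1 in 20 groups. Among control mice, replicate 2 was far for Acss2 (272 CPM, others 232 to 240.4), Cyp2d12 (74.0 CPM, others 41.9 to 46.0) and Enpep (11.7 CPM, others 26.2 to 30.6). Control replicate 4 was far for Idh2 (182 CPM, others 155 to 161), Lamb2 (16.8 CPM, others 27.3 to 29.3) and Psmc5, a proteasome subunit (115 CPM, others 98.4 to 102). Control replicate 3 was far for Rpl23a (1.86 CPM, others 1.05 to 1.24) and Mfsd2a (2.11 CPM, others 0.836 to 1.17), and control replicate 5 for Slc7a15 (0.836 CPM, others 0.431 to 0.498).

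Among obese mice, replicate 2 was far for Pfkm (21.5 CPM, others 17.4 to 18.3) and Krt23 (14.7 CPM, others 12.7 to 12.8), in both toward the control level. Obese replicate 5 was far for Fabp6 (114 CPM, others 29.3 to 51.9) and for the leukocyte gene Ptprc (24.7 CPM, others 11.7 to 15.3), and obese replicate 4 for Scd1 (22.9 CPM, others 17.8 to 18.7).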

How the results depend on the processing

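The count of 205 called genes (93 higher, 112 lower) stayed within 1.5 times under RLE scaling (205), upper-quartile scaling (212), a filter of at least 1 count (161) or of 10 counts in each compared library (189), DESeq2 (266), the 10 libraries alone (259) and removal of the GC and length trend (219, chosen after seeing the data), with 152 to 204 of the called genes shared. A stricter threshold, adjusted p under 0.05 whatever the fold, left 16 genes, 8 higher and 8 lower. Without 1 library the count was 40 to 331, with 20 to 151 higher and 19 to 186 lower, and control replicate 2 and obese replicates 3, 4 and 5 lowered it most; the cause was not tested. With the replicate number as a block, 252 genes were called (116 higher, 136 lower). Correlations of same-numbered deviations ran from -0.16 to 0.31 over the 5 pairs. Deviations of mice with different numbers were not compared, so whether the numbers pair the mice was not tested. Of 90 called named genes, 0 to 11 lost their call under these scalings, filters, fits and DESeq2 (1 of the 84 still tested with the filter of 10 counts), 3 lost it with the block, 76 missed the stricter threshold, and 3 to 60 lost it without 1 library. List medians were recomputed 1215 times, and 5 moved by more than the SD over control mice. Leaving out 1 of 5 mice shifts a group mean by only a part of that mouse's deviation. Few moves could therefore reach this SD, and the count does not measure stability. The 1215 include those under the stricter threshold, which changes only the calls and cannot move a median. Some medians near 0 changed sign, in 10 settings for the BMP and TGF-beta pathway, 8 for retinoid metabolism and 6 for cholesterol synthesis. The MHC class II median ran from -0.57 to 0.47 without single libraries. At this depth, genes near 1 CPM, such as Lyz1, Nos2 and Cyp2c44, rest on few counts in each library (means of 11.8 for Cyp2c44 to 32.8 for Lyz1), and only large differences were detectable for them.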
